A study of Mus musculus with 18 samples.

Results

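The transcripts described here encode 5 subunits of the phagocyte NADPH oxidase, *Cybb*, *Cyba*, *Ncf1*, *Ncf4* and *Rac2*. They were chosen by name, as the entries whose Ensembl identifier maps to these symbols, and all 5 were found among the 55029 genes listed in the files, of which 27841 had a count in at least 1 library. RNA was measured in eosinophils washed from the peritoneum of C57BL/6 mice with an *Il5* transgene (line NJ.1638), after depletion of cells carrying Thy1.2 or B220. Cells were left unstimulated (6 libraries, a to f) or were exposed for 18 h to heat-inactivated *E. coli*, to IFN-γ at 50 ng/ml, to IFN-γ at 50 ng/ml with *E. coli*, or to IL-4 at 100 ng/ml (3 libraries each). The time in culture of the unstimulated cells is not stated in the sources used here. The libraries of a group are called biological replicates, without saying whether they came from separate mice or cultures, so that p-values measure the spread between libraries, part of which may be technical. All eosinophils came from transgenic animals, in which IL-5 raises eosinophil numbers.

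The phagocyte oxidase moves electrons from NADPH across a membrane onto oxygen and so makes superoxide, the source of the respiratory burst. Its catalytic core is a membrane heterodimer of gp91phox (*Cybb*) and p22phox (*Cyba*), which is silent until cytosolic subunits, among them p47phox (*Ncf1*) and p40phox (*Ncf4*), and a Rac GTPase join it. Eosinophils are known for a strong burst, and loss of single subunits causes chronic granulomatous disease.

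The libraries fall into 2 sets with separate file layouts, and each stimulus was compared with unstimulated cells of its own set. Unstimulated libraries a to c, *E. coli*, IFN-γ and the combination form the first set, with 1523808 to 2734041 counts on genes per library. Unstimulated libraries d to f and IL-4 form the other, with 3625036 to 6482289. Levels are given as normalised CPM, counts scaled to a common library size with edgeR's TMM factors, and are not compared between the sets. A count of 3 was taken as the smallest distinguishable from 0, which corresponds to 1.10 to 1.97 CPM in the first set and 0.463 to 0.828 CPM in the IL-4 set, for counting error only. Of 10 listed eosinophil markers, 6 to 8 exceeded 3 counts in each library of the first set, with *Ccr3*, *Alox15* and *Siglecf* abundant in every group. Of 6 tested, 1 was higher and 2 lower with *E. coli* (13.5% and 16.7% of all genes), 4 lower with IFN-γ (16%), and 1 higher and 4 lower with both (23.9% and 25.2%). *Siglecf* itself fell, at -0.68 (adjusted p = 0.000249), -0.70 (0.000177) and -1.55 (7.54e-09). Every subunit lay far above this floor in all 18 libraries and was tested in every comparison.

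A property of the counts bears directly on these abundant transcripts. In each of the 12 libraries of the first set the most abundant gene had 4089 to 4095 counts, just under 4096, the number of different sequences of 6 bases. In the IL-4 set the most abundant gene reached 87377 to 191131 counts. The methods name CEL-Seq2, a protocol that tags molecules with short random identifiers, but the length of the identifiers and their collapsing are not stated. *Cybb* lay at 61.7% to 85.6% of this ceiling, *Ncf1* at 57.3% to 83.9%, *Rac2* at 26.9% to 60.5%, *Cyba* at 20.5% to 52.0% and *Ncf4* at 5.62% to 13.6%. If counts are distinct identifiers drawn from 4096, high counts are compressed, and more so in deeper libraries. The subunits' changes against unstimulated cells in the first set are therefore given on the counts as deposited and beside them on counts corrected for such collisions, as are most of their other called differences. This alternative was chosen after the ceiling had been seen and assumes that all identifiers are used equally. Values of other genes are on deposited counts only, except for the likeness at the end.

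**Figure D1:**
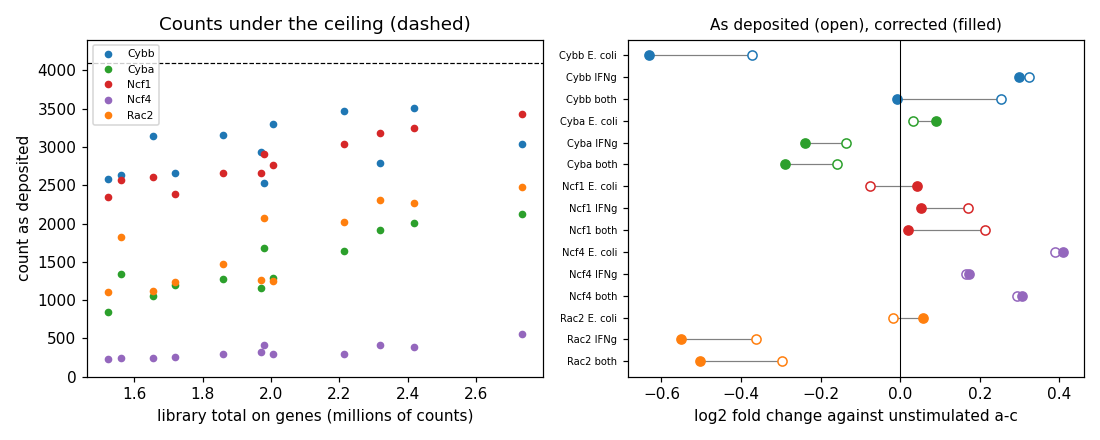
Left, deposited counts of the 5 subunits (colours) against the library total on genes, for the 12 libraries of the first set, with the ceiling of 4096 as a dashed line. Right, log2 fold change against unstimulated libraries a to c for each subunit and stimulus, on counts as deposited (open) and corrected (filled): *Cybb* with *E. coli* moved from -0.37 to -0.63 and *Rac2* with IFN-γ from -0.36 to -0.55, while *Ncf4* changed little.

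*E. coli* alone gave 1 of 5 subunits higher and 1 of 5 lower, against 13.5% and 16.7% of the 9883 genes tested. These were *Ncf4*, higher, and *Cybb*, lower. IFN-γ alone gave 0 of 5 higher and 0 of 5 lower in edgeR, where 15.6% and 16% of all genes were called. At an unadjusted p under 0.05, which 4118 of the 9883 genes met in either direction, 1 was higher and 1 lower. DESeq2 called 1 higher and 0 lower. IFN-γ with *E. coli* gave 1 of 5 higher, *Ncf4*, and 0 of 5 lower, against 23.9% and 25.2%. At an unadjusted p under 0.05 (5426 genes in either direction), 1 was lower, and DESeq2 called 0 lower. The median log2 fold change of the 5 subunits was -0.02 after *E. coli*, 0.17 after IFN-γ and 0.21 after the combination, beside -0.02, -0.03 and -0.04 over all genes. These shares are near or under the background, and the 3 comparisons share their control libraries. The differences described below are therefore those of single subunits.

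**Figure D2:**
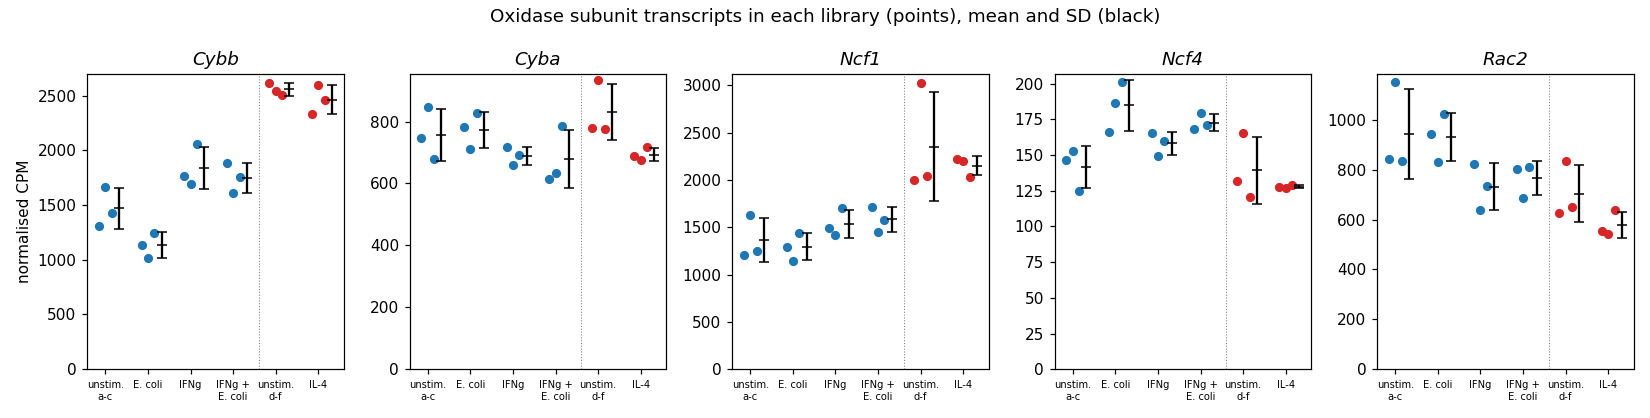
Normalised CPM of each subunit (linear axes from 0) in every library, with points for libraries and the black mark and bar for mean and SD (n = 3). Blue points are the first set and red points the IL-4 set, which are not on a common scale; *Cybb* was lowest in the 3 *E. coli* libraries, at 1016 to 1247 CPM.

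*Cybb* (ENSMUSG00000015340, GRCm38 chromosome X, 9435252 to 9487771, minus strand) encodes gp91phox, the flavocytochrome that carries electrons from NADPH to oxygen. It measured 1307, 1668 and 1430 CPM in unstimulated libraries a, b and c, and 1137, 1016 and 1247 CPM in *E. coli* libraries 1, 2 and 3. IFN-γ libraries 1, 2 and 3 measured 1766, 1688 and 2056 CPM, and those with IFN-γ and *E. coli* 1884, 1607 and 1755 CPM. All 3 *E. coli* libraries lay under every other library of the set, and the 3 IFN-γ libraries lay above the 3 unstimulated ones. Means were 1468 ± 184 (SD, n = 3) unstimulated, 1133 ± 116 after *E. coli*, 1837 ± 194 after IFN-γ and 1748 ± 138 after the combination.

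In edgeR (quasi-likelihood F test, p adjusted over all genes after Benjamini-Hochberg), *Cybb* was lower with *E. coli* than unstimulated (log2 fold change -0.37, SE 0.13, adjusted p = 0.0317). The corrected counts gave -0.63 (adjusted p = 0.00012), a larger fall. On deposited counts this call was lost without unstimulated library b (-0.25, adjusted p = 0.14) or c (-0.39, 0.0577), *E. coli* library 1 (-0.37, 0.0923) or 2 (-0.29, 0.156), or IFN-γ library 2 (-0.35, 0.0518), and in a fit of only the 6 libraries compared (-0.35, 0.0708). On corrected counts it passed in each of 12 fits that left out 1 library, with log2 fold changes of -0.68 to -0.57. With IFN-γ alone *Cybb* was at 0.32 (SE 0.13, adjusted p = 0.0584) on deposited and 0.30 (0.0334) on corrected counts. Whether *Cybb* passed here varied with the library left out. The corrected value missed the threshold without unstimulated library a (adjusted p = 0.0885) or b (0.103) or IFN-γ library 3 (0.139). The deposited one passed it without unstimulated library b (0.0114), IFN-γ library 2 (0.0459), or library 1 (0.0483) or 3 (0.0439) of the combination. With both stimuli *Cybb* was at 0.25 (0.107) on deposited and -0.01 (0.958) on corrected counts, and the deposited value passed without unstimulated library b (0.37, 0.0209).

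Among the comparisons made, *Cybb* differed most between the single stimuli. IFN-γ exceeded *E. coli* by 0.70 (SE 0.13, adjusted p = 0.000361) on deposited and 0.93 (1.47e-06) on corrected counts, a 1.62-fold difference as deposited. Among the 5 subunits it was the only one called higher in this comparison and 0 were called lower, against 14.1% and 11.5% of all genes. At an unadjusted p under 0.05 (3616 of 9883 genes in either direction), 1 was lower, and DESeq2 called 0 lower. The combination likewise exceeded *E. coli* alone, by 0.63 (SE 0.13, adjusted p = 0.000832) and 0.62 (0.000118) after correction, again with 1 of 5 higher and 0 of 5 lower beside 17.5% and 15.3% of all genes. At an unadjusted p under 0.05 (4213 genes in either direction), 2 were higher (*Cybb* and *Ncf1*) and 0 lower, and DESeq2 called 1 higher and 0 lower. Both *Cybb* differences passed in each of the 12 fits without 1 library, on either kind of count. A fit that treated same-numbered libraries as a block also called *Ncf1* higher and *Rac2* lower in each of these comparisons, as given at the end. Against IFN-γ alone, the combination had 0 of 5 subunits higher and 0 of 5 lower, beside 6.25% and 5.98% of all genes. At an unadjusted p under 0.05 (2527 genes in either direction) and in DESeq2, 0 of 5 passed. There *Cybb* was at -0.07 (0.792) on deposited and -0.31 (0.0589) on corrected counts, the latter passing without unstimulated library b (-0.31, 0.0468).

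Markers of macrophages, a cell type not bound by the antibodies used, also differed between these groups; purity was checked by flow cytometry before use. Of the 10 listed macrophage markers, 8 to 10 exceeded 3 counts in each library of the first set. Their summed level was 2582, 2635 and 2622 CPM in unstimulated libraries a, b and c and 2035, 1848 and 2688 CPM with *E. coli*. The sum was 3323, 3168 and 3544 CPM with IFN-γ and 2889, 2956 and 3627 CPM with both stimuli. The most abundant gene of the list was *Adgre1* or *Lyz2*, both of which eosinophils can express, and 1 of the 10 was at 0 in unstimulated library b and in IFN-γ library 1. Of 9 tested, 0 were higher and 3 lower in edgeR with *E. coli* (13.5% and 16.7% of all genes), *Lyz2* (-0.91, adjusted p = 0.00154), *Timd4* (-1.62, 6.41e-05) and *Vsig4* (-1.44, 0.0159). In *E. coli* library 3 the sum lay above all unstimulated libraries, while these 3 genes lay under them, as *Cybb* did. In IFN-γ and in the combination against *E. coli*, 5 of 9 were higher and 0 lower, beside 14.1% and 11.5%, and 17.5% and 15.3%, of all genes. Against unstimulated cells, 4 of 9 were higher and 0 lower with IFN-γ (15.6% and 16% of all genes). With both, 2 of 9 were higher and 0 lower (23.9% and 25.2%). In the same libraries the summed level of 8 B cell markers, led by *Ighm*, was 223, 203 and 120 CPM unstimulated, 42.0, 47.1 and 77.5 CPM with *E. coli*, 102, 65.6 and 61.5 CPM with IFN-γ and 126, 138 and 132 CPM with both. Of 5 tested, 0 were higher and 5 lower with *E. coli* (13.5% and 16.7% of all genes). With IFN-γ 0 were higher and 4 lower (15.6% and 16%), and with both 0 and 0 (23.9% and 25.2%). Against *E. coli*, 1 was higher and 0 lower in IFN-γ (14.1% and 11.5%), and 5 and 0 in the combination (17.5% and 15.3%). The 10 neutrophil markers, led by *Retnlg*, summed to 589, 711 and 576 CPM unstimulated, 451, 425 and 487 CPM after *E. coli*, 686, 635 and 744 CPM after IFN-γ and 353, 413 and 435 CPM after the combination. The 4 that were tested moved in both directions. With *E. coli*, *Retnlg* was lower (-1.02, adjusted p = 2.14e-06) and *S100a8* (3.06, 1.79e-05) and *Cxcr2* (1.73, 6.63e-07) were higher. In IFN-γ against *E. coli*, *Retnlg* (1.10, 6.97e-07) and *Ly6g* (2.66, 4.44e-06) were higher and *Cxcr2* lower (-3.50, 9.96e-10). The sum of 6 mast cell markers was 9.69, 8.24 and 7.43 CPM unstimulated, 10.2, 6.69 and 34.6 CPM after *E. coli*, 30.2, 14.4 and 13.1 CPM after IFN-γ and 36.5, 72.3 and 66.6 CPM after the combination. Whether other cells had a part in the *Cybb* result was not tested. In bulk RNA, fewer cells of a type and less RNA per cell cannot be told apart.

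*Cyba* (ENSMUSG00000006519, chromosome 8, 122424776 to 122432930, minus strand) encodes p22phox, which stabilises gp91phox and docks p47phox. It measured 747, 846 and 679 CPM in unstimulated libraries a, b and c, and 782, 712 and 827 CPM with *E. coli*. It measured 716, 660 and 691 CPM with IFN-γ, and 614, 633 and 785 CPM with both. These groups overlapped throughout. Against unstimulated cells the log2 fold change was 0.03 (adjusted p = 0.881) for *E. coli*, -0.14 (0.424) for IFN-γ and -0.16 (0.288) for the combination. Corrected counts gave 0.09 (0.613), -0.24 (0.136) and -0.29 (0.0524). On these, *Cyba* was lower than with *E. coli* in IFN-γ (-0.33, adjusted p = 0.0494) and in the combination (-0.38, 0.0204), where deposited counts gave -0.17 (0.342) and -0.19 (0.243). Neither corrected call was kept in every fit without 1 library, though the fold changes stayed similar. The former was lost without unstimulated library a (-0.34, 0.0571), *E. coli* library 1 (-0.32, 0.119), 2 (-0.36, 0.0763) or 3 (-0.31, 0.112), IFN-γ library 1 (-0.37, 0.0689), 2 (-0.31, 0.145) or 3 (-0.32, 0.119), or library 2 of the combination (-0.34, 0.058). The latter was lost without *E. coli* library 1 (-0.37, 0.0579), or library 1 (-0.30, 0.0927) or 2 (-0.33, 0.0968) of the combination. Against unstimulated cells, the corrected fall with both passed without unstimulated library c (-0.37, 0.0263) or library 3 of the combination (-0.42, 0.00608).

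*Ncf1* (ENSMUSG00000015950, chromosome 5, 134220053 to 134229625, minus strand) encodes p47phox, the organiser whose phosphorylation starts assembly. An exon overlaps *Gtf2ird2* on the opposite strand, and whether counting used strand is not stated. It measured 1209, 1631 and 1253 CPM in unstimulated libraries a, b and c, and 1296, 1149 and 1438 CPM with *E. coli*. It measured 1487, 1416 and 1701 CPM with IFN-γ, and 1716, 1455 and 1575 CPM with both. Unstimulated library b, the smallest of its group at 1562034 counts, was the highest of its group. After correction the group means were 1841 ± 126 (SD, n = 3) unstimulated, 1894 ± 20.6 after *E. coli*, 1910 ± 154 after IFN-γ and 1867 ± 95.9 after the combination, closer together than the spread within most groups.

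No stimulus of the first set changed *Ncf1* past the threshold. Against unstimulated cells the log2 fold change was -0.08 (adjusted p = 0.72) for *E. coli*, 0.17 (0.357) for IFN-γ and 0.21 (0.196) for the combination. Corrected counts gave 0.04 (0.802), 0.05 (0.733) and 0.02 (0.885). Leaving out unstimulated library b made the deposited values for IFN-γ (0.34, adjusted p = 0.0447) and for the combination (0.38, 0.0179) pass, which the corrected counts did not do in any of the 12 fits without 1 library. Between the combination and *E. coli* alone the deposited values did not overlap (0.29, adjusted p = 0.105), and corrected counts gave -0.02 (0.901).

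*Ncf4* (ENSMUSG00000071715, chromosome 15, 78244801 to 78262580, plus strand) encodes p40phox, which binds phosphatidylinositol 3-phosphate on phagosomes. It measured 147, 153 and 125 CPM in unstimulated libraries a, b and c, and 166, 187 and 201 CPM with *E. coli*. It measured 166, 150 and 160 CPM with IFN-γ, and 168, 180 and 171 CPM with both. Every library with *E. coli*, alone or with IFN-γ, lay above the 3 unstimulated ones, whereas those with IFN-γ alone overlapped them. *Ncf4* was higher with *E. coli* (log2 fold change 0.39, SE 0.11, adjusted p = 0.0116; corrected 0.41, 0.0102) and with both (0.29, SE 0.11, 0.0378; corrected 0.31, 0.0363). With IFN-γ it was at 0.17 (0.286; corrected 0.17, 0.279).

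Being far under the ceiling, *Ncf4* kept these values under the correction, but its calls were not kept in every fit without 1 library. With *E. coli* the call was lost without unstimulated library c (0.31, adjusted p = 0.0648) or *E. coli* library 3 (0.33, 0.051). With both it was lost without unstimulated library a (0.32, 0.0555) or c (0.21, 0.168) or library 2 of the combination (0.27, 0.106), and by library totals in place of TMM factors (0.04, 0.764). That scaling moved the median of all genes by -0.25 in this comparison, so the value relative to all genes changed little. The call with both was also lost with no filter on low counts, with at least 10 counts in every library and with only the 6 libraries compared. On corrected counts the *E. coli* call was lost without unstimulated library c (0.33, 0.0548), and that with both without unstimulated library c (0.22, 0.159) or library 2 of the combination (0.29, 0.0913). With all 6 unstimulated libraries as 1 group, *Ncf4* was at 0.20 (0.332) with *E. coli* and 0.14 (0.44) with both.

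*Rac2* (ENSMUSG00000033220, chromosome 15, 78559167 to 78572783, minus strand) encodes the Rac GTPase largely restricted to blood cells, which joins the oxidase in its GTP form. It measured 845, 1152 and 834 CPM in unstimulated libraries a, b and c, and 943, 829 and 1023 CPM with *E. coli*. It measured 824, 638 and 736 CPM with IFN-γ, and 803, 689 and 811 CPM with both. All 6 libraries with IFN-γ lay under the 6 without it. On deposited counts the difference from unstimulated cells was -0.36 (SE 0.14, adjusted p = 0.0547) with IFN-γ and -0.30 (SE 0.14, 0.0873) with both, and -0.02 (0.944) with *E. coli*.

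On corrected counts *Rac2* was lower with IFN-γ (-0.55, adjusted p = 0.00374) and with both (-0.50, 0.00419) than unstimulated, and at 0.06 (0.785) with *E. coli*. It was also lower than with *E. coli* in IFN-γ (-0.61, 0.00186) and in the combination (-0.56, 0.00315), where deposited counts gave -0.35 (0.0766) and -0.28 (0.135). These 4 corrected calls passed in each of 12 fits that left out 1 library, at adjusted p up to 0.0324. On deposited counts, *Rac2* with IFN-γ passed without unstimulated library a (-0.44, 0.0494) or c (-0.44, 0.0404) or IFN-γ library 1 (-0.45, 0.0452), and against *E. coli* without unstimulated library b (-0.34, 0.0363). The paralogue *Rac1*, present in most cells and overlapping *Daglb*, was higher with both stimuli (0.45, SE 0.12, 0.00447) and at 0.28 (0.0886) with IFN-γ.

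No departure from additivity on the log2 scale was called by edgeR for IFN-γ and *E. coli* together: 0 of 5 were higher and 0 of 5 lower, beside 2.58% and 2.04% of all genes. At an unadjusted p under 0.05 (1661 of 9883 genes in either direction) and in DESeq2, 0 of 5 passed. The interaction was 0.30 (SE 0.18, adjusted p = 0.428) for *Cybb* and -0.26 (SE 0.16, 0.445) for *Ncf4*, and on corrected counts 0.33 (0.241) and -0.28 (0.415).

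With IL-4, in the set without a ceiling, edgeR called 0 of 5 subunits higher and 0 of 5 lower, beside 5.97% and 4.35% of 10556 genes. At an unadjusted p under 0.05 (2639 genes in either direction), 0 were higher and 1 lower, *Cyba*, and DESeq2 called 0. *Cybb* measured 2615, 2542 and 2507 CPM in unstimulated libraries d, e and f and 2330, 2594 and 2455 CPM with IL-4. *Cyba* measured 779, 936 and 777 CPM unstimulated and 688, 674 and 717 CPM with IL-4. The IL-4 libraries overlapped the unstimulated ones for *Cybb* and lay under them for *Cyba*. The log2 fold change was -0.05 (SE 0.10, adjusted p = 0.775) for *Cybb* and -0.26 (SE 0.12, 0.19) for *Cyba*.

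The cytosolic subunits and *Rac2* were not called with IL-4 either. *Ncf1* measured 1998, 3023 and 2038 CPM in libraries d, e and f and 2216, 2203 and 2032 CPM with IL-4. *Ncf4* measured 132, 166 and 121 CPM unstimulated and 128, 127 and 129 CPM with IL-4. *Rac2* measured 628, 834 and 650 CPM unstimulated and 555, 542 and 638 CPM with IL-4. Library e was the highest unstimulated library for *Cyba*, *Ncf1*, *Ncf4* and *Rac2*, and the groups overlapped for the latter 3. It also stood apart over all genes, where its chi-square per gene was 23.7 against d and 22.0 against f, beside 7.86 between d and f. The log2 fold change was -0.13 (adjusted p = 0.652) for *Ncf1*, -0.12 (0.625) for *Ncf4* and -0.29 (SE 0.14, 0.226) for *Rac2*. Without library e these became 0.09 (0.548), 0.02 (0.945) and -0.15 (0.382), and *Cyba* became -0.17 (0.249). In the same libraries 10 listed neutrophil markers, nearly all of whose sum was *Retnlg*, summed to 1999, 1948 and 1682 CPM in d, e and f and 808, 835 and 775 CPM with IL-4, and the macrophage markers to 4029, 4555 and 5123 and to 3140, 3099 and 3592 CPM. Of 5 neutrophil markers tested, 1 was higher and 1 lower, and of 10 macrophage markers 0 and 5 (5.97% and 4.35% of all genes). Mean sums in d to f and with IL-4 were 31.1 and 66.3 CPM for B cell markers (3 of 4 higher, 0 lower). They were 349 and 599 CPM for dendritic cell markers (2 of 3 higher, 0 lower). Nearly all of that sum was *Itgax* in every library, at 554 of 561 CPM in IL-4 library 1. Mast cell markers were at 7.53 and 15.3 CPM, and T and NK cell markers at 4.83 and 3.73 CPM, with 0 called. The part of other cells in these values was not tested.

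The response to IL-4 was set against the other responses in a fit of all 18 libraries, each response taken from unstimulated cells of its own set. The filter, TMM factors and estimate of spread there were shared by both sets. The values can therefore depart from differences between the fits of single sets. Against the *E. coli* response, 0 of 5 were higher (14.4% of 10671 genes) and 1 of 5 lower (13.7%). At an unadjusted p under 0.05 (4124 genes in either direction) and in DESeq2, 0 were higher. The lower one was *Ncf4* (-0.53, SE 0.17, adjusted p = 0.0236, and corrected -0.55, 0.02). Its call was lost without unstimulated library c (-0.46, 0.0697) or e (-0.39, 0.0661) or *E. coli* library 3 (-0.47, 0.0611), and with no filter on low counts. *Cybb* was at 0.30 (0.194) in this comparison, and at 0.56 (0.00394) on corrected counts. Against the IFN-γ response, 0 of 5 were higher (13%) and 0 lower (14.7%). At an unadjusted p under 0.05 (4173 genes in either direction), 0 were higher and 1 lower. There *Cybb* was at -0.41 (0.071), which DESeq2 called as 1 lower subunit (-0.44, 0.0229) with 0 higher, and which also passed without unstimulated library b (-0.52, 0.0218). Against the response to both, 0 of 5 were higher (18.5%) and 1 of 5 lower (20.7%). At an unadjusted p under 0.05 (5022 genes in either direction), 0 were higher and 2 lower (*Ncf4* and *Cybb*), and DESeq2 called 0 higher. The lower one was again *Ncf4* (-0.48, SE 0.17, 0.0318), at -0.42 (0.0598) on corrected counts. Its call was lost without unstimulated library c (-0.40, 0.0894) or e (-0.34, 0.0941), library 2 (-0.44, 0.0739) or 3 (-0.46, 0.0543) of the combination, or IL-4 library 1 (-0.48, 0.0544) or 2 (-0.48, 0.0542). It was also lost with library totals in place of TMM factors, with no filter on low counts and with at least 10 counts in every library. Without unstimulated library b, *Cybb* (-0.47, 0.0266) and *Ncf1* (-0.55, 0.043) passed too.

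Other components and partners of the phagocyte oxidase, and the further lists after them, are given as counts called higher and lower. The shares of all genes to set beside each of these counts are 13.5% higher and 16.7% lower with *E. coli*, 15.6% and 16% with IFN-γ, 23.9% and 25.2% with both, and 5.97% and 4.35% with IL-4. Of 10 tested components and partners, 1 was higher and 1 lower with *E. coli*, 4 higher and 1 lower with IFN-γ, and 7 higher and 1 lower with both. With IL-4, 1 of 11 was higher and 2 lower. *Hvcn1*, the proton channel that offsets the charge the oxidase moves, was lower with *E. coli* (-0.99, adjusted p = 3.25e-05), IFN-γ (-1.75, 7.6e-08) and both (-2.34, 1.32e-09), and higher with IL-4 (0.63, 0.0145). *Prdx6*, a peroxiredoxin with phospholipase activity, was higher with IFN-γ (1.21, 5.96e-07) and both (1.53, 1.15e-08) and lower with IL-4 (-0.64, 0.00421). *S100a8*, whose protein brings arachidonate to the oxidase and which also stands in the list of neutrophil markers, was higher with *E. coli* (3.06, 1.79e-05), IFN-γ (2.20, 0.00106) and both (2.71, 5.16e-05). *S100a9*, in the same lists, did not pass the filter on low counts in the first set. *Cybc1*, the chaperone needed for gp91phox to mature, was higher with both (0.57, 0.00236) and at 0.35 (0.064) with IFN-γ; it overlaps *Hexdc* on the opposite strand.

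None of the 9 listed genes of other NADPH oxidases passed the filter on low counts in any comparison. *Nox4* reached 17 counts in an unstimulated library of the IL-4 set and 3 at most in the first set, and *Noxo1* reached 9 with IL-4. *Duox1*, *Duox2* and *Duoxa2* were at 0 in all 18 libraries, and levels too low for this depth could not be seen. Of the guanine nucleotide exchange factors and their partners that load Rac with GTP, 7 were tested. *Tiam1* was higher with *E. coli* (3.67, adjusted p = 3.46e-09), IFN-γ (1.20, 0.00994) and both (2.00, 2.68e-05). *Dock5* was lower with *E. coli* (-1.14, 8.45e-05), IFN-γ (-1.34, 2.41e-05) and both (-2.57, 1.76e-08). In all, 1 was higher and 2 lower with *E. coli*, 2 and 2 with IFN-γ, and 1 and 4 with both, and 0 and 0 of 7 with IL-4.

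Kinases that phosphorylate the cytosolic subunits or feed the process were called in each direction. Of 16 tested, 3 were higher and 5 lower with *E. coli*, 2 and 4 with IFN-γ, 3 and 7 with both, and 1 and 2 with IL-4. *Prkcb*, a protein kinase C that phosphorylates p47phox, was higher with *E. coli* (0.66, adjusted p = 4.04e-05), IFN-γ (0.58, 0.000173) and both (0.56, 0.000123), and lower with IL-4 (-0.78, 0.00204). *Prkca*, of the same family, was lower with *E. coli* (-0.47, 0.00754), IFN-γ (-1.12, 3.39e-06) and both (-2.05, 2.35e-09). *Mapk14*, the p38 kinase that primes p47phox, was lower with *E. coli* (-0.64, 0.00332), with IFN-γ (0.501 times the unstimulated level, 8.77e-05) and with both (-1.66, 1.89e-07).

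Of 9 genes of NADPH supply, 1 was higher and 1 lower with *E. coli*, 4 and 1 with IFN-γ, 3 and 2 with both, and 0 and 4 with IL-4. *G6pdx*, the entry enzyme of the pentose phosphate pathway, was higher with IFN-γ (0.43, adjusted p = 0.00332) and both (0.47, 0.00087), at 0.24 (0.0823) with *E. coli*, and lower with IL-4 (-0.89, 0.00271). *Pgd*, the next oxidative enzyme of that pathway to make NADPH, was higher with *E. coli* (0.30, 0.0278), IFN-γ (0.68, 3.1e-05) and both (0.62, 4.8e-05), and lower with IL-4 (-0.81, 0.0178). Among genes that handle superoxide and peroxide, 1 of 6 was higher and 1 lower with *E. coli*, 3 and 1 with IFN-γ, 4 and 1 with both; with IL-4 0 of 8 were higher and 3 lower. *Prdx1*, which reduces peroxide, was higher with IFN-γ (1.72, 3.62e-07) and both (1.86, 4.93e-08) and lower with IL-4 (-1.99, 2.63e-05).

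Of 10 tested transcription factors known at oxidase promoters, 2 were higher and 4 lower with *E. coli*, 6 and 2 with IFN-γ, 7 and 2 with both, and 3 and 2 with IL-4. *Irf1* was lower with *E. coli* (-0.76, adjusted p = 1.52e-05) and higher with IFN-γ (2.08, 2.47e-11), both (2.04, 1.26e-11) and IL-4 (0.97, 0.000782). *Irf8*, a partner of PU.1 at the *CYBB* promoter, was higher with IFN-γ (1.88, 3.32e-05) and both (1.93, 1.17e-05), and at -0.76 (0.096) with *E. coli*. *Spi1*, which encodes PU.1, was at 0.16 (0.34) after *E. coli*, 0.04 (0.852) after IFN-γ, 0.10 (0.513) after the combination and -0.15 (0.466) after IL-4. *Epx*, the granule peroxidase that uses hydrogen peroxide from the burst, had at most 4 counts in any library of the first set and 19 in the IL-4 set, where it was at 0.85 (0.268).

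Promoter windows, 250 bases before to 50 after the gene start in RefSeq (GRCm38.p6), were at hand for 3 of the 5, *Cybb*, *Cyba* and *Ncf1*. All 3 are shown. *Cybb* is a subunit whose differences from *E. coli* passed whichever library was left out, *Cyba* its membrane partner, and *Ncf1* the organiser with no call. The *Cybb* window lies inside the gene span given above, because another annotated transcript starts further upstream. Searched on both strands were GAGGAA, a core bound by PU.1, present in 28.3% of all 32851 windows, GGAA and GAAA with 2 free bases between, bound by PU.1 with an interferon regulatory factor, in 2.72%, and the STAT forms TTCNNNGAA, in 8.30%, and TTC and GAA with 4 free bases between, in 6.95%. Capitals mark every match, and matches that overlap run together.
*Cybb* (chrX:9469275-9469574, minus strand): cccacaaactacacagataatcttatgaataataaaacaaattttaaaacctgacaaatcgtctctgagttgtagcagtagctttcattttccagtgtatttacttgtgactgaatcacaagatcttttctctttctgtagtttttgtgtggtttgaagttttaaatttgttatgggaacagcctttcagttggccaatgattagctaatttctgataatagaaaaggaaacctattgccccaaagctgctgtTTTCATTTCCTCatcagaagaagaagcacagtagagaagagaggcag
*Cyba* (chr8:122432891-122433190, minus strand): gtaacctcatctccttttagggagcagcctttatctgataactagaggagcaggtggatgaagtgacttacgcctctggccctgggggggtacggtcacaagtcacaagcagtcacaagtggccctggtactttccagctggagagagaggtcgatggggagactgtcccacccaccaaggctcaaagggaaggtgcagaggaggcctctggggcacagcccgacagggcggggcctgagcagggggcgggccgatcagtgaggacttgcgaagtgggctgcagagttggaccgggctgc
*Ncf1* (chr5:134229576-134229875, minus strand): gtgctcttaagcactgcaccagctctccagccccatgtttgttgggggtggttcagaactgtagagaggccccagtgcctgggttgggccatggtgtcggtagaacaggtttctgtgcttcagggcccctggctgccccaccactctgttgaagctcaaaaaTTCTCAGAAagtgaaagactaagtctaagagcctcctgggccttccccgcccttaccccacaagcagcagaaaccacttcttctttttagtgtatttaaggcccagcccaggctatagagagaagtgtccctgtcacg
The *Cybb* window held GAGGAA and the PU.1 and interferon regulatory factor form, overlapping on the reverse strand just after the start used for the window. The *Ncf1* window held TTCNNNGAA, and the *Cyba* window held none of these letters, which says nothing of the factors themselves. A match is a description and was not tested as a binding site.

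Over the 12 libraries of the first set, the genes most like each subunit by Pearson's r of log2 CPM, among 7922 others with a mean of at least 10 CPM, were *Oasl2* (r = 0.97), *Samhd1* (0.97) and *Tmbim6* (0.96) for *Cybb*. They were *Calm3* (0.93), *Ndufc1* (0.92) and *Rpl41* (0.91) for *Cyba*, *Hpf1* (0.95), *Eef1g* (0.90) and *Gnpnat1* (0.89) for *Ncf4*, and *Gtf3c6* (0.90), *Arpc1b* (0.90) and *Dhrs4* (0.90) for *Rac2*. For *Ncf1* they were *Arpc2* (0.99), *Ccl6* (0.99) and *Tmsb4x* (0.99), of which *Ccl6* had 3833 to 4093 counts and *Tmsb4x* 4076 to 4094 in every library, at the ceiling. On corrected counts the r of these 3 with *Ncf1* was 0.30, 0.30 and 0.42. With *Cybb*, *Oasl2* was at 0.94, *Samhd1* (up to 3821 counts) at 0.89 and *Tmbim6* at 0.83, and *Hpf1* with *Ncf4* was at 0.95. Over the 6 libraries of the IL-4 set, *Oasl2*, *Samhd1* and *Tmbim6* with *Cybb* were at -0.40, -0.43 and -0.54. *Gtf3c6*, *Arpc1b* and *Dhrs4* with *Rac2* were at 0.45, 0.90 and 0.64. These libraries share groups and depth, and the values are descriptions with no test.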

How the data were processed

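The authors deposited whole-number counts per Ensembl gene for each of 18 libraries, without normalization. The submitters' processing notes name TopHat2 2.1.0, STAR 2.7.2a, fastp 0.20.1, HTSeq 0.6.1 and GRCm38. Rows naming no gene, 21.1% to 39.4% of the counts in the first set, were left out. Members and gene lists were chosen with earlier results of these data known. R 4.3.3, edgeR 4.0.16 and DESeq2 1.42.0 were used. Genes were kept by filterByExpr, scaled by TMM and tested in edgeR (quasi-likelihood F test, Benjamini-Hochberg over all genes tested, adjusted p under 0.05) in 1 model of 12 libraries, 1 of 6 and, for differences between responses, 1 of 18. SEs derive from the fold change and F statistic. The pipeline was tested on simulated counts with no ceiling. The genes changed there were less abundant than *Cybb*, *Cyba*, *Ncf1* and *Rac2*, so compressed counts like theirs were not tried. Corrected counts are minus 4096 times the natural log of 1 minus the count over 4096, chosen after seeing the data. Genes named are the 5 members, fixed partners, and up to 4 per list and comparison by smallest adjusted p, of which a selection is described; a fixed partner is not reported here. Cell type markers named singly were chosen after their values were seen. Positions are from GENCODE, and copies were searched at 95% identity over 200 bases. No pair of libraries within a group agreed within sampling noise (chi-square per gene of 1.64 or more).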

Additional observations from a re-analysis of the deposited data

How the results depend on the processing

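Of the subunits' values under all alternatives, leave-one-out included, 1525 kept their side of the threshold, 50 passed it newly and 55 missed it newly. Leave-one-out values on corrected counts were judged against the full fit of corrected counts, and all others against the main fit. No value called in either fit changed direction; some called in neither did, such as *Ncf1* with IL-4, at -0.13 and, without unstimulated library e, 0.09. The counts of subunits called moved as follows; where a setting is not named for a comparison, its count was kept. The cause was not tested. With library totals in place of TMM, which moved the median of all genes by -0.18 (IFN-γ), -0.25 (both), -0.23 (both against *E. coli*), -0.15 (IFN-γ against *E. coli*), 0.10, 0.27 and 0.37 (IL-4 response against those to *E. coli*, IFN-γ and both), 2 were lower with IFN-γ, 0 higher and 2 lower with both, 3 lower in both against *E. coli*, 3 lower in IFN-γ against *E. coli*, and, for the IL-4 response, 1 higher against that to *E. coli* and 0 lower against that to both. With no filter on low counts, 1 was higher and 1 lower with IFN-γ, 0 higher with both, 1 lower in IFN-γ against *E. coli*, and, for the IL-4 response, 0 lower against those to *E. coli* and to both. With at least 10 counts in every library, 1 was lower with IFN-γ, 0 higher and 1 lower with both, and 0 lower in the IL-4 response against that to both. In DESeq2, 1 was higher with IFN-γ and 1 lower in the IL-4 response against that to IFN-γ; its size factors in edgeR moved no count. Requiring a factor of 2 as well left 0 higher and 0 lower with *E. coli*, 0 higher with both, in both against *E. coli* and in IFN-γ against *E. coli*, and 0 lower in the IL-4 response against those to *E. coli* and both. With only the 6 libraries compared, 0 were lower with *E. coli*, 0 higher with both and 1 lower in IFN-γ against *E. coli*. With all 18 libraries in 1 fit, 1 was higher with IFN-γ and 2 with both. With all 6 unstimulated libraries as 1 group, 0 were higher with *E. coli* and 0 with both; this was not applicable among stimulated groups or to differences from the IL-4 response. With counts corrected for collisions, added after seeing the data, 1 was higher and 1 lower with IFN-γ, 1 lower with both, 2 lower in both against *E. coli* and in IFN-γ against *E. coli*, and, for the IL-4 response, 1 higher against that to *E. coli* and 0 lower against that to both.

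Leaving out each library in turn, the number higher ranged from 0 to 1 with *E. coli*, 0 to 2 with IFN-γ and 0 to 3 with both. The number lower ranged from 0 to 1 with *E. coli*, with IFN-γ, in IFN-γ against *E. coli* and in the IL-4 response against those to *E. coli* and IFN-γ, and from 0 to 3 against that to both. Other counts were kept.

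Stimulated libraries share replicate numbers. Deviations of same-numbered libraries from their group means had r of -0.045 to 0.331, over 0.1 in 4 of 9 pairs, and not every library correlated best with its own number. With the number as a replicate block, 2 were higher and 1 lower in both against *E. coli* (*Ncf1* 0.29, adjusted p = 0.00796; *Rac2* -0.29, 0.0104) and in IFN-γ against *E. coli* (*Ncf1* 0.25, 0.0229; *Rac2* -0.35, 0.00308). In both against IFN-γ 0 were higher and 0 lower in edgeR.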
